A study of Oryza sativa with 8 samples.

Results

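The GABA shunt enzyme genes described here are the rice genes annotated as glutamate decarboxylase, which makes gamma-aminobutyrate (GABA), or as gamma-aminobutyrate transaminase, which breaks it down. They were chosen by those words in the Swiss-Prot match or description of each gene, together with a level of at least 1 TPM (an abundance scaled by gene length and by library) in at least 2 of the 8 libraries. Of 57403 genes in the expression matrix, 11 carried such an annotation and 8 passed the level filter, 4 on the synthesis side and 4 on the breakdown side. LOC_Os04g52440, a transaminase gene, led to the choice of this set because of its large difference between treated and untreated ZH11, so its values against or within ZH11 are given as a description with no test.

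RNA was sequenced from whole seedlings of 2 rice genotypes, grown hydroponically to 2 weeks of age. OE1 is a transgenic line overexpressing ScOYE3, a yeast gene for a flavin-dependent reductase, and ZH11 is the wild-type rice. The 4 groups, each of 2 libraries, were OE1 treated with 0.8 mM 2-nitroaniline for 8 h at 25°C, OE1 untreated, ZH11 treated in the same way and ZH11 untreated. Each library came from a pool of 20 plants. A single transgenic line was studied, and the promoter of the transgene is not given in the sources used here. Whether the pools of 1 group had separate plantings or treatments is not given either, so the p-values reflect the spread between libraries that may differ only technically.

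GABA is a non-protein amino acid that many plants accumulate under stress such as low oxygen, cold, drought or salt. Glutamate decarboxylase removes a carboxyl group from glutamate in the cytosol, and many plant forms of the enzyme are activated by calcium-bound calmodulin. Gamma-aminobutyrate transaminase, mostly mitochondrial in plants, moves the amino group of GABA to pyruvate or glyoxylate and leaves succinic semialdehyde. Succinic semialdehyde dehydrogenase then makes succinate, which enters the tricarboxylic acid cycle, so that the route bypasses part of that cycle.

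Per library 42.1 to 56.5 M trimmed reads entered alignment. Treated ZH11 replicate 2 stood apart, with a GC content of 52.0% against 53.5% to 55.4% in the others, and the median log2 difference between replicates, taken without sign, was 0.45 in treated ZH11 and 0.10 to 0.20 in the other groups. Genes of 1800 to 2200 nt lay 0.19 above their mean over the 8 libraries in that library (median, log2 scale) and genes of 700 to 1000 nt lay 0.41 below it. Genes over 5000 nt lay 0.91 above their mean in that library. Its reads averaged 149.1 nt after trimming, as did those of untreated ZH11 replicate 2 (149.8 nt), against 145.0 to 146.9 nt in the other 6 libraries. Shoot markers, 23 chlorophyll-binding and Rubisco small-subunit genes of which 1 was at 0 in every library, summed to 50876 and 51384 TPM in treated OE1 against 62043 to 63544 TPM in untreated OE1, and to 47715 and 55156 TPM in treated ZH11 against 63933 and 64011 TPM in untreated ZH11. Root markers, 19 metal, silicon and nitrate transporter genes of which 4 or 5 were at 0, summed to 805 to 890 TPM in treated OE1 against 1042 to 1079 TPM in untreated OE1, and to 798 and 1038 TPM in treated ZH11 against 801 and 817 TPM in untreated ZH11. Both organs were thus detected in every library. The summed shoot markers were lower in the treated libraries of both genotypes, and the summed root markers were lower in treated OE1 and overlapped in ZH11. Their part in the results was not tested. Remnants of the seed were low, at 91.4 to 148.4 TPM over 52 storage protein and amylase genes of which 28 to 40 were at 0. The list meant for pollen marked none, since its 8 genes, found at 560 to 1512 TPM, included X8 domain proteins that only resemble an olive allergen. In whole seedlings, fewer cells of a type and less RNA per cell cannot be told apart.

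The 8 genes covered a wide range of levels. LOC_Os04g52450, matched to the mitochondrial transaminase GATP1, was the most abundant at 205.8 ± 53.8 TPM (mean ± SD over 8 libraries) and was above every other member in all 8. The decarboxylase gene LOC_Os03g51080 followed at 67.9 ± 12.6 TPM and the transaminase match LOC_Os10g15240 at 63.4 ± 35.8 TPM, an order that held in 5 of 8 libraries. The decarboxylase gene LOC_Os08g36320 had 39.9 ± 6.1 TPM, below LOC_Os10g15240 in 6 of 8. LOC_Os03g13300, a decarboxylase gene, and LOC_Os08g10510, a transaminase gene, had 12.3 ± 3.4 and 10.2 ± 1.8 TPM and kept that order in 6 of 8 libraries. The decarboxylase gene LOC_Os04g37500 had 5.75 ± 1.49 TPM, and LOC_Os04g52440 averaged 3.34 ± 4.52 TPM, with levels from 0.16 to 12.2 TPM. Neighbours in this order whose libraries overlapped are not told apart by level.

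The level filter left out 3 annotated genes. LOC_Os02g02210, matched to the transaminase GATP4, had 0.08 to 0.82 TPM and lies just outside the threshold. LOC_Os04g37460, a decarboxylase gene, was listed at 0 in 7 libraries and at 0.03 TPM in the eighth, and LOC_Os05g34840, a 438 nt gene with a decarboxylase match and no domain annotation, had at most 0.29 TPM. Just inside the threshold lay LOC_Os04g52440, which reached 1 TPM in 5 libraries. The other 7 members reached 1 TPM in all 8 libraries.

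On the synthesis side no gene passed the test in any comparison. After 2-nitroaniline, 3 of the 4 decarboxylase genes had lower TPM in both treated OE1 libraries than in either untreated one. The same held for 28.6% of all genes tested. These 3 genes were lower by 0.56 to 0.66 on the log2(TPM + 1) scale. In ZH11 their differences were smaller and mostly within the spread of the replicates, and 1 of the 4 was lower without overlap, against 18.4% of all genes. That scale, used for every difference below, shrinks fold changes where TPM is low. The decarboxylase genes all have the pyridoxal-dependent decarboxylase domain, and the best Swiss-Prot match of 3 of them is GAD1 of Arabidopsis thaliana.

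LOC_Os03g51080, the most abundant decarboxylase gene, had 56.5 and 50.02 TPM in treated OE1 against 80.0 and 78.3 TPM in untreated OE1, and 53.5 and 80.6 TPM in treated ZH11 against 73.4 and 70.7 TPM in untreated ZH11. The OE1 groups did not overlap, whereas the treated ZH11 libraries lay on both sides of the untreated ones. LOC_Os03g13300 had 12.2 and 9.27 TPM in treated OE1 against 17.8 and 17.2 TPM in untreated OE1, and 8.77 and 11.3 TPM in treated ZH11 against 11.2 and 10.49 TPM in untreated ZH11. Untreated OE1 was the high group here, above all 6 other libraries. LOC_Os04g37500, whose best match is GAD4 of Arabidopsis thaliana, had 4.58 and 4.37 TPM in treated OE1 against 7.50 and 7.13 TPM in untreated OE1. In the same gene treated ZH11 had 4.80 and 4.09 TPM against 5.88 and 7.66 TPM in untreated ZH11, and it was the only decarboxylase gene whose treated and untreated groups were apart in both genotypes. LOC_Os08g36320 had 44.4 and 37.5 TPM in treated OE1 against 45.3 and 43.6 TPM in untreated OE1, and 33.3 and 46.8 TPM in treated ZH11 against 30.0 and 38.3 TPM in untreated ZH11, and its groups overlapped in both genotypes.

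**Figure D1:**
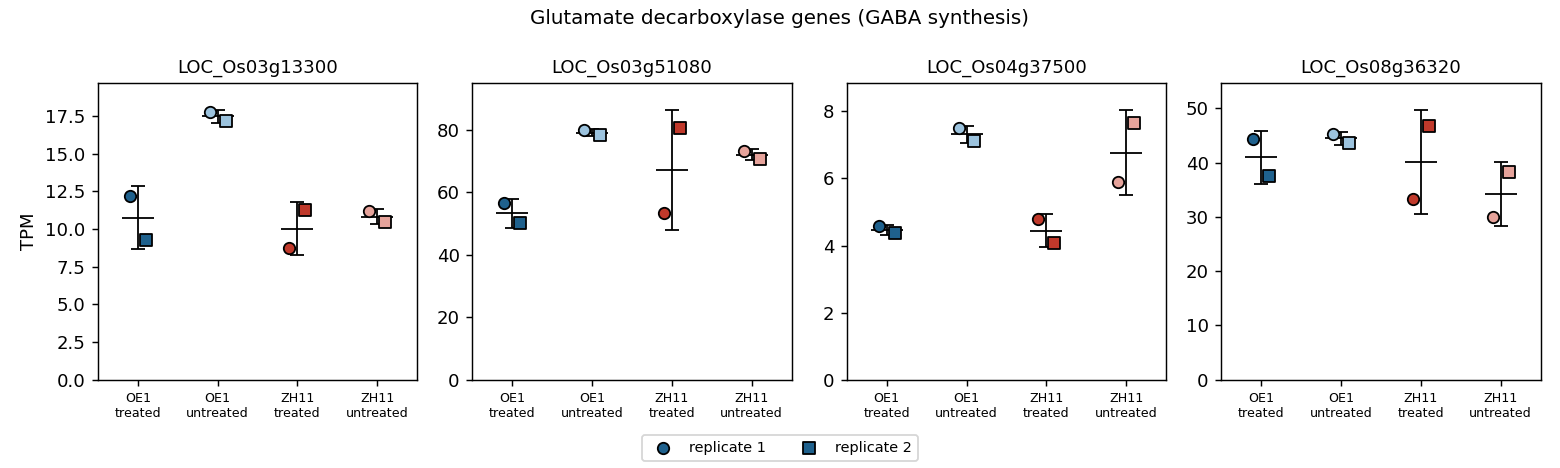
TPM (vertical axis, linear from 0, a scale per panel) of the 4 glutamate decarboxylase genes in the 4 groups; circles and squares are replicates 1 and 2, and bars are the mean ± SD of n = 2 libraries. Treated OE1 lies below untreated OE1 without overlap for LOC_Os03g13300, LOC_Os03g51080 and LOC_Os04g37500.

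The treatment comparison in OE1 gave a difference of -0.66 ± 0.19 (SE, n = 2 libraries per group) for LOC_Os03g13300, with a 95% interval from -1.11 to -0.22 and a limma adjusted p of 0.27. LOC_Os04g37500 differed by -0.60 ± 0.19 and LOC_Os03g51080 by -0.56 ± 0.20 (limma adjusted p = 0.317 and 0.404). LOC_Os08g36320 differed by -0.12 ± 0.21, with an interval from -0.61 to 0.37. The median of the 4 genes was -0.58, beside -0.04 over all 25281 genes tested. None of the root or shoot marker genes was called by limma for treatment in OE1 or ZH11, but 8 of 12 tested root marker genes had lower TPM in treated than in untreated OE1 without overlap, against 0 of 12 in ZH11, and their median difference was -0.20 in OE1 and 0.15 in ZH11. Of the 22 tested shoot marker genes, 17 were lower without overlap in OE1 and 15 in ZH11. Over all genes tested, 28.6% were lower without overlap in OE1 and 18.4% in ZH11. The part of these markers in the decarboxylase values was not tested. Standard errors rest on 1 spread per gene over all 8 libraries. In a fit of only the 4 OE1 libraries, the limma adjusted p became 0.0189 for LOC_Os03g51080, 0.0471 for LOC_Os04g37500 and 0.0515 for LOC_Os03g13300. The differences were the same, each still smaller than the log2 difference of 1 that a call required. Other alternatives moved the limma adjusted p the other way, to 0.486, 0.426 and 0.336 for these genes without the level filter.

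In ZH11 the treatment differences of the decarboxylase genes were -0.51 ± 0.19 for LOC_Os04g37500 (limma adjusted p = 0.345), -0.13 ± 0.20 for LOC_Os03g51080, -0.11 ± 0.19 for LOC_Os03g13300 and 0.22 ± 0.21 for LOC_Os08g36320. Their median was -0.12, beside 0.02 over all genes tested. The 95% intervals of the last 3 genes ran from -0.60 to 0.34, from -0.56 to 0.34 and from -0.27 to 0.70. Differences within these bounds were thus not excluded with 2 libraries per group. Without treated ZH11 replicate 2 the values were -0.41 for LOC_Os04g37500, -0.42 for LOC_Os03g51080, -0.28 for LOC_Os03g13300 and -0.02 for LOC_Os08g36320, the last with its sign changed. The difference between the genotypes' responses was -0.56 ± 0.27 for LOC_Os03g13300, -0.43 ± 0.28 for LOC_Os03g51080, -0.34 ± 0.29 for LOC_Os08g36320 and -0.10 ± 0.26 for LOC_Os04g37500 (limma adjusted p from 0.805 to 0.922), so that no decarboxylase gene was shown to respond differently in OE1 and ZH11.

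On the breakdown side the 4 genes did not move together. LOC_Os04g52450, the abundant mitochondrial transaminase gene, had higher TPM in treated than in untreated libraries of both genotypes without overlap, yet did not pass the test. LOC_Os04g52440, the gene with the next identifier on chromosome 4, was at 0.16 to 1.54 TPM in every library except those of untreated ZH11. LOC_Os10g15240 had its highest TPM in treated OE1 without passing the test, and LOC_Os08g10510 differed little between groups.

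LOC_Os04g52440, whose best match is a probable mitochondrial transaminase, GATP2, had 1.22 and 0.92 TPM in treated OE1 against 1.0 and 1.54 TPM in untreated OE1, and 0.16 and 0.89 TPM in treated ZH11 against 8.74 and 12.2 TPM in untreated ZH11. Untreated ZH11 was thus far above the other 3 groups, which lay within 0.16 to 1.54 TPM. The depth behind these values can be read from the authors' deposited table, which gives estimated counts of 4.45 and 17.3 in treated ZH11 against 231.2 and 287.0 in untreated ZH11, and of 29.6 and 44.6 in untreated OE1. In the authors' deposited table the log2 fold was -4.45 for treated over untreated ZH11 and -3.02 for untreated OE1 over untreated ZH11. On the log2(TPM + 1) scale these differences were -2.94 and -2.33, and the first was -4.36 with 0.1 added in place of 1 and -1.48 with 5 added. Without treated ZH11 replicate 2 the first was -3.29, and without replicate 1 it was -2.59. In OE1, the contrast that played no part in its choice, the treated libraries overlapped with the untreated ones and the difference was -0.13 ± 0.31 (n = 2 per group, 95% interval -0.85 to 0.59, limma adjusted p = 1).

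LOC_Os04g52450 had 216.0 and 191.8 TPM in treated OE1 against 164.3 and 165.1 TPM in untreated OE1, and 235.7 and 323.0 TPM in treated ZH11 against 168.5 and 182.4 TPM in untreated ZH11. All 4 treated libraries lay above all 4 untreated ones. The difference was 0.30 ± 0.17 in OE1 and 0.65 ± 0.17 in ZH11 (limma adjusted p = 0.741 and 0.211), with 95% intervals from -0.11 to 0.71 and from 0.24 to 1.06. Within ZH11 the shorter-read libraries gave 235.7 TPM treated against 168.5 TPM untreated, and the longer-read ones 323.0 TPM treated against 182.4 TPM untreated. After a loess curve on gene length was removed from each library the ZH11 difference was 0.58 (limma adjusted p = 0.0533). Without treated ZH11 replicate 1 it was 0.88 and without treated ZH11 replicate 2 it was 0.42, each with 1 treated ZH11 library left. At the main difference of 0.65, the limma adjusted p was 0.867 with only the 4 ZH11 libraries and 0.678 with weights by library. The pair LOC_Os04g52440 and LOC_Os04g52450 therefore lay on opposite sides of 0 in ZH11 after treatment, the first by description only.

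LOC_Os08g10510, matched to a probable mitochondrial transaminase, GATP3, had 10.04 and 8.64 TPM in treated OE1 against 8.96 and 10.8 TPM in untreated OE1, and 8.64 and 14.0 TPM in treated ZH11 against 9.76 and 11.1 TPM in untreated ZH11. Its groups overlapped for treatment in both genotypes and for genotype with and without treatment, and its differences lay between -0.22 and 0.07. The 95% interval was -0.63 to 0.49 for treatment in OE1 and -0.49 to 0.63 in ZH11.

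LOC_Os10g15240 stands apart from the other transaminase genes by its annotation. It is described as a retrotransposon protein of the Ty3-gypsy subclass, it is 858 nt long against 1873 to 2118 nt for the other 3, and it has an aminotransferase class-III domain beside a domain of unknown function, but no KEGG ortholog, where the other 3 carry POP2. Its best match is the GATP1 protein, as for LOC_Os04g52450, and whether the genes share reads was not tested. Treated OE1 had 122.6 and 113.7 TPM against 47.6 and 51.5 TPM in untreated OE1, and treated ZH11 had 56.6 and 23.4 TPM against 57.5 and 34.5 TPM in untreated ZH11. Treated OE1 was above all other libraries, while the ZH11 libraries ranged widely, with the longer-read library the lower one in each ZH11 group. The authors' deposited table gives it counts of 1683 and 1831 in treated OE1 against 731 and 782 in untreated OE1, with a log2 fold of 1.29 and an adjusted p of 6.17e-20.

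The treatment difference of LOC_Os10g15240 in OE1 was 1.24 ± 0.40 (n = 2 per group, 95% interval 0.31 to 2.17), which missed the threshold in the fit over all 8 libraries (limma adjusted p = 0.336). The spread of the ZH11 libraries enters that fit. The longer-read libraries were replicate 2 of each ZH11 group, so a read length term acts on that spread. The alternatives that follow are therefore not independent of each other. With the 4 OE1 libraries alone the limma adjusted p was 0.00222 and the gene was called higher, as it was with weights by library (0.00472), with a term for read length (0.0181) and without treated ZH11 replicate 1 or 2 (0.0323 and 0.0332). Over all its alternatives the adjusted p ran from 0.00222 to 1. In ZH11 the difference was -0.28 ± 0.40, with an interval from -1.21 to 0.65, and it was 0.34 without treated ZH11 replicate 2. The difference between the responses was 1.52 ± 0.56 (limma adjusted p = 0.703), a call that appeared without treated ZH11 replicate 1 (2.14, limma adjusted p = 0.0127) and in no other alternative run.

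**Figure D2:**
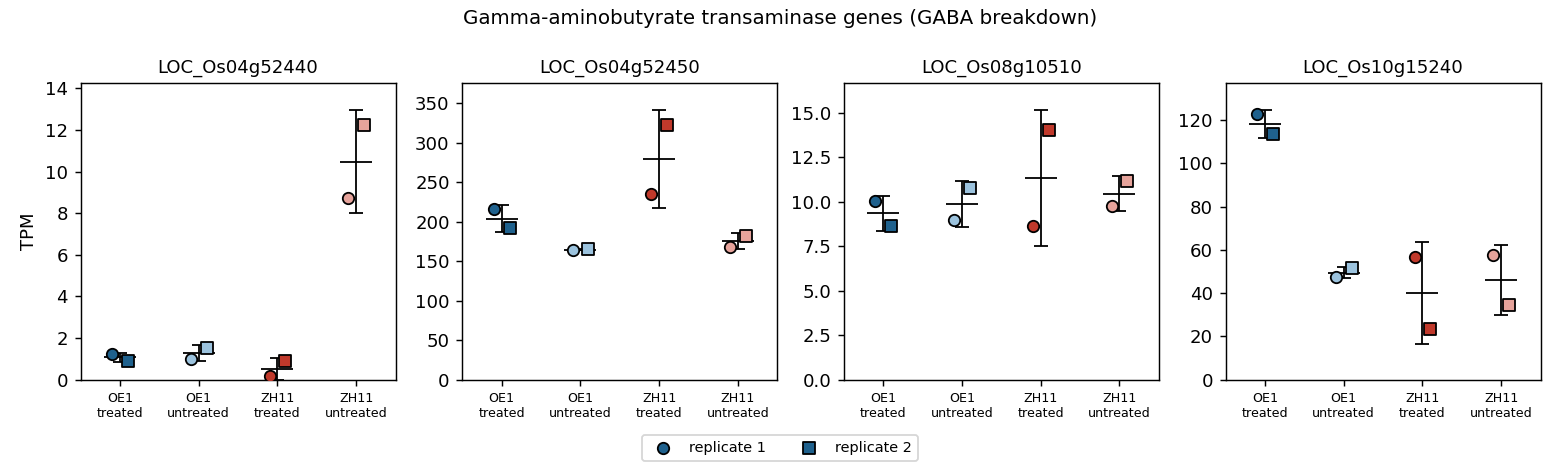
TPM (vertical axis, linear from 0, a scale per panel) of the 4 transaminase genes in the 4 groups; circles and squares are replicates 1 and 2, and bars are the mean ± SD of n = 2 libraries. LOC_Os04g52440 is above 2 TPM in untreated ZH11 alone, and LOC_Os10g15240 is above 100 TPM in treated OE1 alone.

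Counted over both sides, 0 of 8 members were called in OE1 after treatment, where limma called 0.241% of all genes tested, and 0 of 7 tested members in ZH11, where it called 0.289%. At an unadjusted limma p under 0.05 there were 4 of 8 in OE1 and 2 of 7 in ZH11, against 9.44% and 12.7% of all genes. Treated and untreated groups did not overlap for 5 of the 8 genes in OE1, against 52.3% of all genes, with 2 of the 8 higher and 3 lower against 23.8% and 28.6% of all genes. In ZH11 it was 3 of the 8 genes, against 34.3%, with 1 higher and 2 lower against 15.9% and 18.4%. For these counts of groups that do not overlap, the members' share was close to that of all genes in both genotypes. For the difference between the responses 0 of 7 were called and 1 of 7 had an unadjusted p under 0.05, against 0.0316% and 6.45% of all genes.

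**Figure D3:**
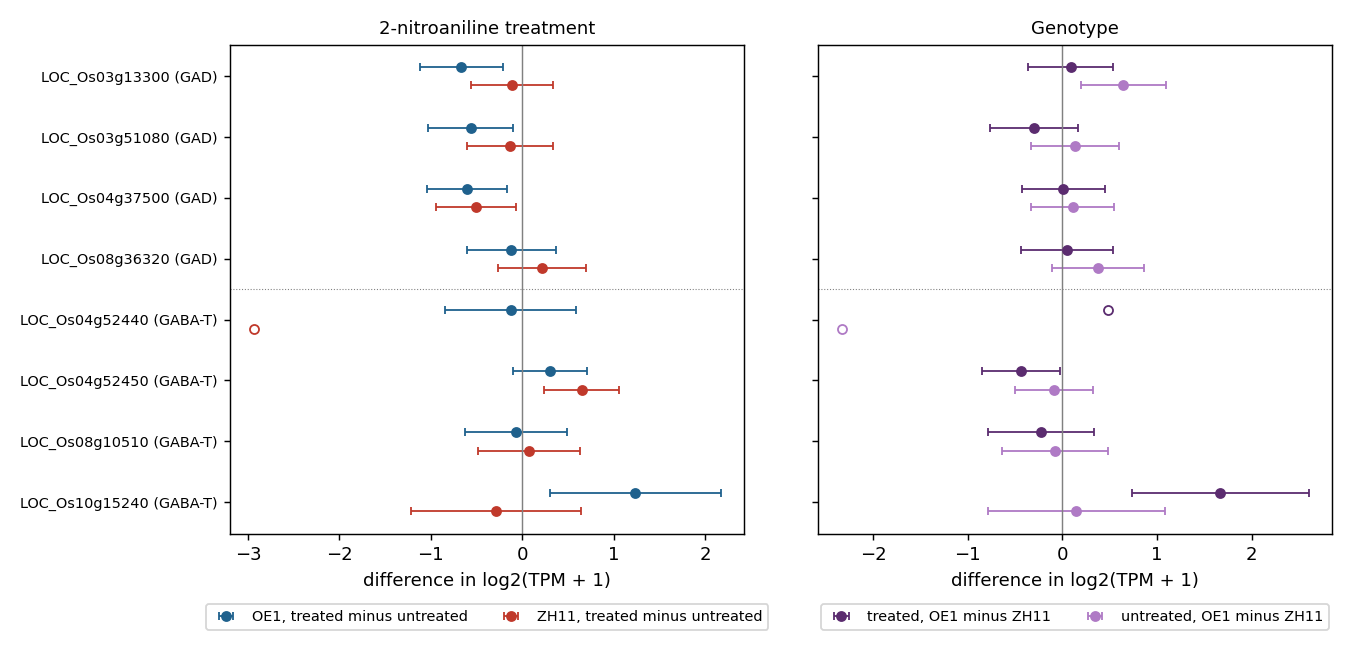
Differences in log2(TPM + 1) (horizontal axis) of the 8 genes, 4 decarboxylase genes (GAD) above the dotted line and 4 transaminase genes (GABA-T) below it, for treatment (left) and genotype (right); filled points carry the 95% limma interval and open points, without an interval, are the untested values of LOC_Os04g52440. LOC_Os10g15240 has the largest tested differences, 1.24 for treatment in OE1 and 1.67 for treated OE1 minus treated ZH11.

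Between the genotypes, the decarboxylase genes were all on the higher side in untreated OE1 but none was called. LOC_Os03g13300 had 17.8 and 17.2 TPM in untreated OE1 against 11.2 and 10.49 TPM in untreated ZH11, a difference of 0.64 ± 0.19 (limma adjusted p = 0.589). LOC_Os08g36320 had 45.3 and 43.6 TPM in untreated OE1 against 30.0 and 38.3 TPM in untreated ZH11 (0.38 ± 0.21, 95% interval -0.11 to 0.87). LOC_Os03g51080 differed by 0.13 ± 0.20, and LOC_Os04g37500, whose groups overlapped, by 0.11 ± 0.19. The median over the 4 decarboxylase genes was 0.26, beside 0.01 over all genes. Of 12 tested root marker genes, 7 were higher and 2 lower in untreated OE1 without overlap, with a median of 0.22. Of 22 shoot marker genes, 5 were higher and 10 lower, with a median of -0.06. Over all genes, 21.7% were higher and 19.6% lower. The part of these markers was not tested. Of the transaminase genes, LOC_Os04g52450 and LOC_Os08g10510 differed by -0.09 ± 0.17 and -0.08 ± 0.24 between untreated OE1 and untreated ZH11.

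In the treated libraries all 4 decarboxylase genes overlapped between the genotypes, with differences between -0.30 and 0.09. LOC_Os04g52450 had 216.0 and 191.8 TPM in treated OE1 against 235.7 and 323.0 TPM in treated ZH11 (-0.44 ± 0.17, limma adjusted p = 0.309). LOC_Os10g15240 had 122.6 and 113.7 TPM in treated OE1 against 56.6 and 23.4 TPM in treated ZH11 (1.67 ± 0.40, limma adjusted p = 0.131), and it was called with a term for read length (1.18, limma adjusted p = 0.0397) and without treated ZH11 replicate 1 (2.29, limma adjusted p = 0.00204). The authors' deposited table lists it as higher in treated OE1 than in treated ZH11, with a log2 fold of 1.56 and an adjusted p of 0.0321. LOC_Os04g52440, given without a test, differed by 0.48 between treated OE1 and treated ZH11.

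In all, 0 of 7 tested members were called between the untreated genotypes and 0 of 7 between the treated ones, where limma called 0.443% and 0.953% of all genes. At an unadjusted limma p under 0.05 there were 1 of 7 and 2 of 7, against 4.94% and 15.1% of all genes. Without treatment the genotypes did not overlap for 5 of the 8 genes, against 41.4% of all genes, with 3 higher and 2 lower in OE1 against 21.7% and 19.6%. With treatment it was 3 of the 8, against 42.4%, with 2 higher and 1 lower against 23% and 19.3%. The treatment and genotype comparisons share libraries, so that these counts are not independent of those for treatment.

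Summed over the family, transaminase TPM was higher in the treated libraries of both genotypes, while decarboxylase TPM was lower in treated OE1 and overlapped in ZH11. The 4 transaminase genes summed to 349.9 and 315.1 TPM in treated OE1 against 221.9 and 228.9 TPM in untreated OE1, and to 301.0 and 361.2 TPM in treated ZH11 against 244.5 and 240.2 TPM in untreated ZH11. The 4 decarboxylase genes summed to 117.7 and 101.1 TPM in treated OE1 against 150.6 and 146.2 TPM in untreated OE1, and to 100.4 and 142.8 TPM in treated ZH11 against 120.4 and 127.2 TPM in untreated ZH11. The ratio of synthesis to breakdown transcripts was 0.337 and 0.321 in treated OE1 against 0.679 and 0.639 in untreated OE1, and 0.333 and 0.395 in treated ZH11 against 0.492 and 0.530 in untreated ZH11. Each treated library was below each untreated one, and no p is given for a sum over chosen genes. As given above, treated and untreated groups also separated for 52.3% of single genes in OE1 and 34.3% in ZH11.

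Left without LOC_Os10g15240, whose place in the family rests on its protein match, the ratio was 0.518 and 0.502 in treated OE1 against 0.864 and 0.824 in untreated OE1, and 0.411 and 0.423 in treated ZH11 against 0.644 and 0.618 in untreated ZH11. With LOC_Os10g15240 included, the shorter-read ZH11 libraries had 0.333 treated against 0.492 untreated and the longer-read ones 0.395 treated against 0.530 untreated. Without that gene the shorter-read ones had 0.411 against 0.644 and the longer-read ones 0.423 against 0.618. The composition of each sum differed between groups. LOC_Os04g52450 made up 60.9% to 89.4% of the transaminase TPM of a library, and LOC_Os10g15240 made up 35.1% and 36.1% in treated OE1 against 21.5% and 22.5% in untreated OE1. LOC_Os04g52440 made up 3.57% and 5.09% in untreated ZH11 and at most 0.67% in the other groups. Of the decarboxylase TPM, LOC_Os03g51080 held 48.0% to 60.9% and LOC_Os08g36320 24.9% to 37.7%. These are levels of transcripts, and no enzyme activity or GABA was measured here.

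**Figure D4:**
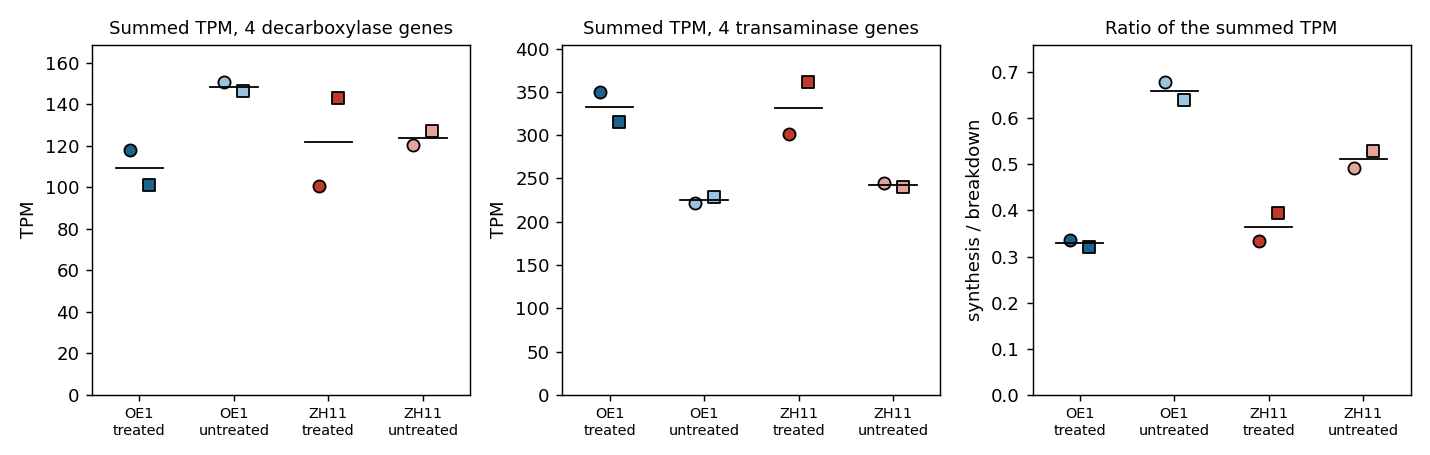
Summed TPM of the 4 decarboxylase genes (left), summed TPM of the 4 transaminase genes (centre) and their ratio (right) in each library, by group; circles and squares are replicates 1 and 2 and the line is the mean of n = 2 libraries. The ratio is 0.321 to 0.395 in the treated libraries and 0.492 to 0.679 in the untreated ones.

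The genes of neighbouring steps were taken from 14 lists of enzymes and transporters around GABA, and 64 of their genes were tested. After treatment 1 of 64 was called in OE1 and 0 of 64 in ZH11 (limma, 1.56% and 0%, beside 0.241% and 0.289% of all genes), and 0 of 64 were called between the genotypes or for the difference between responses. The median difference was -0.09 in OE1 and -0.02 in ZH11, beside -0.04 and 0.02 over all genes. The gene called was LOC_Os03g12290, the cytosolic glutamine synthetase GLN1-2, which uses glutamate to assimilate ammonium. It had 79.6 and 70.5 TPM in treated OE1 against 208.2 and 211.7 TPM in untreated OE1 (-1.47 ± 0.14, limma adjusted p = 0.015), and 82.1 and 95.8 TPM in treated ZH11 against 102.4 and 110.4 TPM in untreated ZH11. Untreated OE1 was the high group, as for the decarboxylase gene LOC_Os03g13300. For LOC_Os03g12290, untreated OE1 minus untreated ZH11 was 0.98 ± 0.14 (limma adjusted p = 0.0448), just under the log2 difference of 1 that a call required.

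Downstream of the transaminases, LOC_Os02g07760, the mitochondrial succinic semialdehyde dehydrogenase, had 37.1 and 35.6 TPM in treated OE1 against 37.5 and 41.3 TPM in untreated OE1, and 35.1 and 57.1 TPM in treated ZH11 against 36.0 and 41.9 TPM in untreated ZH11. Its differences were -0.11 ± 0.23 and 0.20 ± 0.23 (limma adjusted p = 1 and 0.695). The other gene of that list, LOC_Os08g01760, was the more abundant at a mean of 89.7 TPM, but its match is to an archaeal acetylating enzyme. LOC_Os02g35500 and LOC_Os01g39270, matched to the glyoxylate/succinic semialdehyde reductases GLYR1 and GLYR2 of Arabidopsis thaliana, which turn succinic semialdehyde into gamma-hydroxybutyrate, differed by -0.19 ± 0.13 and -0.27 ± 0.21 in OE1 and by -0.33 ± 0.13 and -0.39 ± 0.21 in ZH11. Both reductase genes had lower TPM in treated than in untreated libraries of each genotype without overlap, and neither was called. Lower TPM without overlap was seen for 28.6% of all genes in OE1 and 18.4% in ZH11. The share of all genes lower in both genotypes was not counted.

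GDH2, GLYR2, the mitochondrial dehydrogenase LOC_Os02g07760 and the malate transporter genes named below were chosen after their values were seen. On the side of glutamate supply, LOC_Os04g45970, the mitochondrial glutamate dehydrogenase GDH2, had 111.1 and 146.7 TPM in treated ZH11 against 65.4 and 69.4 TPM in untreated ZH11 (0.91 ± 0.16, limma adjusted p = 0.0897), and 70.2 and 65.5 TPM in treated OE1 against 60.4 and 62.6 TPM in untreated OE1 (0.14 ± 0.16). The most abundant gene of that list, LOC_Os03g58040 or GDH1, averaged 106.6 TPM and differed by -0.14 ± 0.15 in OE1 and 0.08 ± 0.15 in ZH11. The 5 genes matched by the words for glutamate synthase included 2 folylpolyglutamate synthase genes of another pathway, and their most abundant member, the ferredoxin-dependent LOC_Os07g46460, averaged 606.3 TPM with 1253 TPM in treated ZH11 replicate 2 alone. The most abundant glutamine synthetase gene, LOC_Os04g56400, averaged 1053 TPM and differed by -0.37 ± 0.15 in OE1 and -0.12 ± 0.15 in ZH11.

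No gene for the transport of GABA, for the channels it acts on or for calmodulin was called. The 3 tested GABA transporter matches had medians of -0.11 in OE1 and 0.05 in ZH11, and the most abundant of them, LOC_Os01g63854, averaged 17.9 TPM. In plants such as wheat, GABA inhibits anion channels of the aluminum-activated malate transporter family, of which 6 genes were tested, with LOC_Os06g15779 the most abundant at a mean of 12.8 TPM. In that family LOC_Os02g45160 had 5.64 and 7.21 TPM in treated ZH11 against 2.35 and 2.21 TPM in untreated ZH11. Its difference was 1.17 ± 0.20 in ZH11 (limma adjusted p = 0.0845) and 0.24 ± 0.20 in OE1. LOC_Os04g47930 had 5.53 and 4.17 TPM in treated OE1 against 1.88 and 1.98 TPM in untreated OE1. Its difference was 0.99 ± 0.21 in OE1 (limma adjusted p = 0.14) and 0.68 ± 0.21 in ZH11 (0.263). Neither gene was called for the difference between responses (limma adjusted p = 0.595 and 0.805). The 5 calmodulin genes, whose products bind plant decarboxylases in the presence of calcium, had medians of -0.0044 in OE1 and -0.23 in ZH11, with LOC_Os05g41210 the most abundant at a mean of 376.0 TPM. Calmodulin genes resemble each other so closely that reads may have been assigned to the wrong copy.

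The remaining lists had no called gene in any comparison. The lists for polyamine oxidases, copper amine oxidases and aminoaldehyde dehydrogenases, which can form GABA from polyamines, had 7, 4 and 2 genes tested. Their medians were -0.22, -0.07 and 0.22 in OE1 and -0.05, 0.15 and 0.14 in ZH11. These lists were matched by words, and the descriptions of LOC_Os04g53195 in the first and LOC_Os07g38440 in the second name no such enzyme. The 4 alanine aminotransferase genes, whose enzymes interconvert alanine and pyruvate, had medians of -0.30 in OE1 and 0.13 in ZH11. For the tricarboxylic acid cycle steps that the shunt bypasses or feeds, 3 genes of the 2-oxoglutarate dehydrogenase complex had medians of -0.10 in OE1 and 0.30 in ZH11. The 15 genes matched by the words for succinate dehydrogenase had medians of 0.02 in OE1 and -0.0047 in ZH11. They included genes described otherwise, such as LOC_Os08g17650 (an LYR motif protein) and LOC_Os11g32480 (a TPR repeat family protein).

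**Figure D5:**
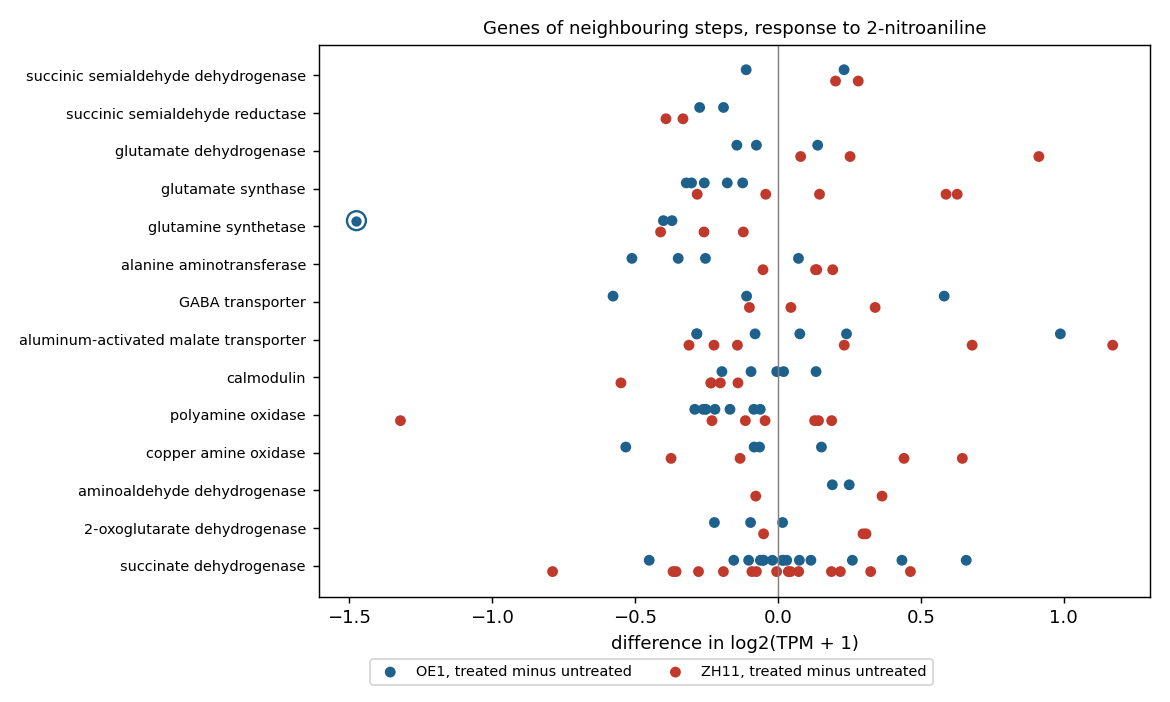
Differences in log2(TPM + 1) (horizontal axis), treated minus untreated, of the tested genes of 14 lists around the GABA shunt, in OE1 (blue, above) and ZH11 (red, below); each point is a gene and a ring marks a limma call. The only ringed point is the glutamine synthetase gene LOC_Os03g12290 in OE1 at -1.47.

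The genes most like LOC_Os04g52440 over the 8 libraries were taken by Pearson's r of log2(TPM + 1) among 14833 annotated genes averaging 5 TPM or more. They were LOC_Os02g21250 (a coatomer zeta subunit, COPZ2, r = 0.96), LOC_Os02g10390 (a chlorophyll-binding protein, r = 0.95), LOC_Os07g37220 (r = 0.94), LOC_Os09g17560 (r = 0.93) and LOC_Os12g02810 (a protein kinase, r = 0.93). LOC_Os07g37220 is described as an inositol monophosphatase, but its match is a putative PAP-specific phosphatase. All 5 had their highest TPM in the untreated ZH11 libraries. LOC_Os09g17560, matched to the acetylserotonin O-methyltransferase ASMT1, came closest in size, with 15.9 and 16.4 TPM in treated OE1 against 14.1 and 13.6 TPM in untreated OE1, and 7.70 and 7.04 TPM in treated ZH11 against 43.0 and 43.7 TPM in untreated ZH11. The 8 libraries form only 4 groups, so these likenesses are a description. LOC_Os03g51080, the most abundant decarboxylase gene, was most like LOC_Os12g44190 (an AAA-ATPase, r = 0.99), LOC_Os02g08100 (4-coumarate-CoA ligase, 4CL3, r = 0.98), LOC_Os05g04510 (S-adenosylmethionine synthase, r = 0.98), LOC_Os04g52190 (a vacuolar-sorting receptor, r = 0.98) and LOC_Os02g22380 (the xylosyltransferase XAX1, r = 0.97). Among the members themselves, r over the 8 libraries was -0.44 between LOC_Os04g52440 and LOC_Os04g52450. It was 0.55 to 0.68 among LOC_Os03g13300, LOC_Os03g51080 and LOC_Os04g37500, the decarboxylase genes already named as lower in treated OE1 in these same libraries. The remaining decarboxylase gene, LOC_Os08g36320, had r of 0.588, 0.36 and 0.019 with them, in that order. The r furthest from 0 among the members was -0.761, between LOC_Os04g37500 and LOC_Os04g52450. These values are a description over libraries that share groups.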

How the data were processed

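The values were the TPM per library that the authors deposited, for 57403 genes in 8 libraries, with 1 line of the matrix emptied. For genes the authors called, their deposited tables hold estimated counts for each library, the log2 fold, and a p-value with its adjusted form. The deposited trimming table gave each count of reads and the GC percent. Cufflinks 2.2.1 is named in the submitters' processing notes, without a role. The aligner, counter, strand, test and genome build are not given in the sources used here. A further 24 sample columns in those files were not used.

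The 25281 genes that reached 1 TPM in 2 or more libraries were fitted with limma 3.58.1 (R 4.3.3) on log2(TPM + 1), as 4 group means with an eBayes trend. A call required a Benjamini-Hochberg adjusted p under 0.05 over all these genes and an absolute log2 difference of at least 1. The fit was tested on simulated data. Count tests were not run, since estimated counts cover called genes only. Named genes were all members, neighbouring genes that were called or the most abundant of their list, and the 5 genes most like 2 members; a few further neighbours were chosen after their values were seen. The members and lists were chosen with earlier results of these data known. TMM factors came from edgeR 4.0.16. Chromosomes were read from the locus identifiers, and sequences were not used here.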

Additional observations from a re-analysis of the deposited data

How the results depend on the processing

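No tested member was called under 13 alternatives, apart from LOC_Os10g15240. In OE1 after treatment the count was 1 with only the 4 libraries compared, 1 with the read length term, 1 with library weights and 0 to 1 over the 8 fits that leave out a library. Between treated OE1 and treated ZH11 it was 1 with the read length term and 0 to 1 when a library was left out. For the difference between responses it was 0 to 1 when a library was left out. The replicate block gave 0 called members in each comparison. The replicate numbers are not stated to pair the samples, and the groups' replicate differences correlated from -0.28 to 0.233. Blocks on the 4 treated libraries, added after the data were seen, called 0 members (177 genes in all) and, with crossed numbers, 1 member (415 genes).

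Calls over all genes moved more. In ZH11 after treatment 73 genes were called, against 27 with no filter, 0 with only its 4 libraries, 21 with the block, 205 with the read length term, 171 with the length gradient removed and 8 with library weights. In OE1 it was 61, against 36, 557, 25, 339, 181 and 575. Between untreated genotypes it was 112, against 67 with a pseudocount of 5, 68 with the stricter filter and 221 with library weights. Between treated genotypes it was 241, against 145 with no filter, 152 with the stricter filter, 44 with only those 4 libraries, 130 with the block and 57 with library weights. For the difference between responses it was 8, against 0 with a pseudocount of 0.1, 14 with no filter, 3 with the stricter filter, 0 with the block, 13 with the length gradient removed and 1 with library weights. Leaving out treated ZH11 replicate 1 gave 2635 calls in ZH11, 3854 between treated genotypes and 2709 for the difference, against 171, 215 and 28 without replicate 2.

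Of 848 differences of single members, 26 changed sign, all from main values within 0.283 of 0. With the read length term OE1 minus ZH11, untreated, was 0.052 for LOC_Os04g52450, 0.125 for LOC_Os08g10510 and -0.342 for LOC_Os10g15240. The other 23 arose when a library was left out, with these ranges. In ZH11 after treatment LOC_Os03g13300 ran from -0.275 to 0.056, LOC_Os03g51080 from -0.424 to 0.16, LOC_Os08g10510 from -0.245 to 0.394, LOC_Os08g36320 from -0.024 to 0.454 and LOC_Os10g15240 from -0.903 to 0.337. In OE1 LOC_Os08g10510 ran from -0.189 to 0.051 and LOC_Os04g52440 from -0.299 to 0.046. Between untreated genotypes LOC_Os04g37500 ran from -0.059 to 0.273, LOC_Os08g10510 from -0.198 to 0.042 and LOC_Os10g15240 from -0.212 to 0.509. Between treated genotypes LOC_Os03g13300 ran from -0.094 to 0.27, LOC_Os08g36320 from -0.194 to 0.283, LOC_Os04g37500 from -0.083 to 0.105 and LOC_Os08g10510 from -0.541 to 0.098. For the difference between responses LOC_Os08g10510 ran from -0.463 to 0.176 and LOC_Os04g37500 from -0.262 to 0.07. The causes were not tested. A fit that leaves 1 library in a group assumes that it varies like the other groups.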
